A study of Mus musculus with 5 samples.

Results

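The genes described here were 9 CXC chemokines (Cxcl1, Cxcl2, Cxcl9, Cxcl10, Cxcl12, Cxcl13, Cxcl14, Cxcl15 and Cxcl16) and the atypical chemokine receptor Ackr3, 10 of the 27998 genes in the deposited tables. They were chosen by symbol, from a list drawn up with the levels of these genes in these cells already known, so their levels and ratios are given as descriptions and none was tested. Single-cell RNA-seq had been performed on dissociated mammary glands of ovariectomised BALB/cj mice, a surgical model of menopause, with 1 library for each of 5 treatments. The treatments were vehicle (labelled Vehicle, here OVX), 17β-estradiol (E2), E2 with a mixture of polybrominated diphenyl ethers in the food (E2+PBDE), E2 with progesterone (E2+P4), and all of these together (E2+P4+PBDE). All mice had been ovariectomised 20 weeks before a treatment of 1 week, and were 30 weeks old at sampling. Each animal received 1 µg of E2 and 0.1 mg of P4 a day where these applied, and the PBDE food held 7.1 mg of BDE-47, 0.4 mg of BDE-100 and 0.9 mg of BDE-153 per kg, while the other groups had matched food without them. The glands were the fourth pair with the lymph node removed, the cells were not sorted, and the number of mice behind a library was not given in the sources used here.

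CXC chemokines are small secreted proteins that attract leukocytes along gradients by binding G protein-coupled receptors. Cxcl1 and Cxcl2 act on Cxcr2 and draw neutrophils, and both are early genes of the NF-κB response. Cxcl9 and Cxcl10 are interferon-induced and act on Cxcr3 of T and NK cells. Cxcl12 retains leukocytes and progenitor cells through Cxcr4, while Ackr3 binds Cxcl12 and removes it without G protein signalling. Cxcl13 guides B cells through Cxcr5, and Cxcl16 is a membrane-bound ligand of Cxcr6 that can be shed. Cxcl14 has no settled receptor, and Cxcl15, or lungkine, was named for its expression in the lung. In the mammary gland, stromal fibroblasts surround an epithelium made of basal cells and of luminal alveolar (L-Alv) and luminal hormone-sensing (L-Hor) cells, the last of which carry the estrogen and progesterone receptors.

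In GRCm38, 6 of the 10 genes lie on chromosome 5. Cxcl15 (chr5:90794534-90803067), Cxcl1 (chr5:90891241-90893115) and Cxcl2 (chr5:90903871-90905938) lie on the plus strand, with Cxcl2 starting 10.755 kb after the end of Cxcl1 and Cxcl1 starting 88.173 kb after the end of Cxcl15. Cxcl9 (chr5:92321347-92328079) and Cxcl10 (chr5:92346638-92348889) are minus-strand neighbours 18.558 kb apart, and Cxcl13 is at chr5:95956951-95961068. Each of the chemokines on chromosome 5 has 4 exons in its principal transcript. Cxcl12 is at chr6:117168535-117181367, Cxcl14 at chr13:56288643-56296551, Cxcl16 at chr11:70453983-70459984 and Ackr3 at chr1:90203980-90216751.

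Promoter sequence from RefSeq (GRCm38.p6) is shown for Cxcl1, Cxcl2 and Cxcl10, since their levels are set beside lists of NF-κB and interferon response genes below. Capitals mark the form of the κB motif searched for here in each (GGGA and TTCC with any 2 bases between) and, in Cxcl10, also the interferon-stimulated response element (GAAA and GAAA with any 2 bases between). Other forms of the κB motif were not searched for and are not marked. The Cxcl1 and Cxcl2 stretches are plus-strand sequence at chr5:90891095-90891214 and chr5:90903749-90903868, and the Cxcl10 stretch is minus-strand sequence at chr5:92348920-92349109, each written 5′ to 3′ towards the start of the gene.
Cxcl1: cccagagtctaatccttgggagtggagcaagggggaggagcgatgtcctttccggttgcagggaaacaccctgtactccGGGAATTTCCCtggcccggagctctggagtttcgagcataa
Cxcl2: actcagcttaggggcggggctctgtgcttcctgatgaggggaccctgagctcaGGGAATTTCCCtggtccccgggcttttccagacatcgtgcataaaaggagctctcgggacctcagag
Cxcl10: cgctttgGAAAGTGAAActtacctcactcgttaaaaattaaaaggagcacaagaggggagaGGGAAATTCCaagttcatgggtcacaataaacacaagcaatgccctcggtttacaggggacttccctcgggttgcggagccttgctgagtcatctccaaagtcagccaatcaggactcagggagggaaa
Cxcl1 and Cxcl2 carry the same 11 letters, which match the κB motif on both strands in overlapping positions. They lie 71 to 61 and 97 to 87 bases upstream of the RefSeq start. For these genes that start is not the first base of the gene positions given above, so the distances are not to be compared between them. The Cxcl10 κB match lies 159 to 150 bases upstream and its interferon element 213 to 204 bases upstream. Searching 250 bases upstream on both strands, 1.21% of the 32851 promoters in the table held the κB letters and 2.98% held those of the interferon element. Of the 9 members with a promoter in the table, the κB letters were in Cxcl1, Cxcl2 and Cxcl10, and the interferon element was in Cxcl10 and Cxcl14. Cxcl14 also held the gamma-activated site letters (TTCNNNGAA), found in 7.02% of promoters. The palindromic estrogen response element (GGTCA and TGACC with any 3 bases between), in 0.0639% of promoters, was in none of the 9. These matches describe letters and not binding.

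The 5 libraries held 14344 barcodes, of which 14317 passed the filters, and 19982067 to 42012988 unique molecular identifiers (UMIs) each. A level is given as UMIs of a gene per 1000000 UMIs of the barcodes of a class (CPM), and since each molecule is counted once at its 3′ end, it needs no correction for gene length. Values of 5 libraries are listed in the order OVX, E2, E2+PBDE, E2+P4 and E2+P4+PBDE. Intervals in brackets are exact 95% intervals that cover counting error only: with 1 library per group the spread between mice is not measured. Fewer cells, a different mix of cells and less RNA per cell cannot be told apart in a class that is itself a mixture. Clusters with the markers of the class gave 7281 fibroblast-like barcodes, in which the summed CPM of 6 fibroblast markers was 19892 to 31455, 2537 L-Hor-like, 1085 L-Alv-like, 406 basal-like, 318 proliferating luminal-like, 234 vascular-like and 525 hematopoietic-like barcodes. A further 1931 luminal barcodes with the markers of both lineages were left out as putative multiplets, and no cluster was named neutrophil: S100a8, S100a9, Csf3r and Retnlg together reached 9.60 CPM at most in the hematopoietic-like barcodes of any library.

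Fibroblast-like barcodes were divided into 4523 of adventitial type, with the markers Pi16, Anxa3, Dpp4, Cd55 and Sema3c, and a remainder. The members were not used to divide them. The adventitial share was 52.7%, 64.4%, 71.2%, 54.5% and 75.1% of fibroblast-like barcodes, so a value over all fibroblasts also reflects this mix. The remainder held a sub-cluster of 1422 barcodes led by genes that include Inmt and Smoc2 and one of 1302 barcodes led by Crabp1, and both are called here by these genes. The first had 43.1%, 8.0%, 5.9%, 9.4% and 4.4% of the fibroblast-like barcodes, and the second 4.2%, 27.3%, 22.8%, 35.4% and 18.1%. In this joint clustering, made with no correction for library, OVX thus lay mainly in one of them and the treated libraries in the other. Clustering each library alone gave a different balance. A cluster with Smoc2 and Fgl2 among its leading genes held 159 barcodes in E2, 300 in E2+PBDE and 322 in E2+P4. One with Crabp1 held 175, 284 and 122. The division thus depended on whether libraries were clustered together, and values of both joint sub-clusters carry this limit. Both carried Col15a1, but Inmt was at 457 and 137 CPM in them, Smoc2 at 433 and 142 CPM, Spon1 at 88.6 and 651 CPM and the matrix gene Tnc at 10.7 and 49.5 CPM, so they are given apart. The division depended on the resolution of the clustering, and values of the Crabp1 barcodes moved most with it. Among adventitial-type barcodes, 1265 of 1353 in OVX belonged to a sub-cluster that supplied 56 of 606 in E2, and 377 barcodes of E2+PBDE and 158 of E2+P4+PBDE belonged to another with 24 to 53 barcodes in each other library. A last group of 34 fibroblast-like barcodes carried epithelial genes, with 22 of them in E2+P4+PBDE. Running numbers in the names of both PBDE libraries are adjacent and apart from those of the others, and what they stand for is not given in the sources used here. Across libraries, 80 barcode sequences occurred more than once.

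The members differed in the class that held them, and each abundant one had its own order of classes (the heat map of levels by class). Over all barcodes the files held 69703 UMIs of Cxcl1, 19722 of Cxcl12, 19491 of Ackr3, 18184 of Cxcl14, 15905 of Cxcl15, 14592 of Cxcl13, 12438 of Cxcl2, 5760 of Cxcl16, 3570 of Cxcl10 and 141 of Cxcl9. Fibroblast-like barcodes held 95.3% of the Cxcl13 UMIs, 91.8% of Ackr3, 83.0% of Cxcl10, 76.5% of Cxcl12 and 70.4% of Cxcl1. Cxcl14 was divided between fibroblast-like (55.0%) and basal-like (35.3%) barcodes. Cxcl2 stood apart from Cxcl1, with 48.1% of its UMIs in the 525 hematopoietic-like barcodes and 22.0% in fibroblasts. L-Hor-like barcodes held 50% of the Cxcl15 UMIs and the luminal multiplets 39.8%, against 1.8% in fibroblasts. Cxcl16 was the most spread, with 25.9% in fibroblasts, 15.4% in hematopoietic, 11.2% in L-Hor and 9.7% in L-Alv barcodes.

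**Figure D1:**
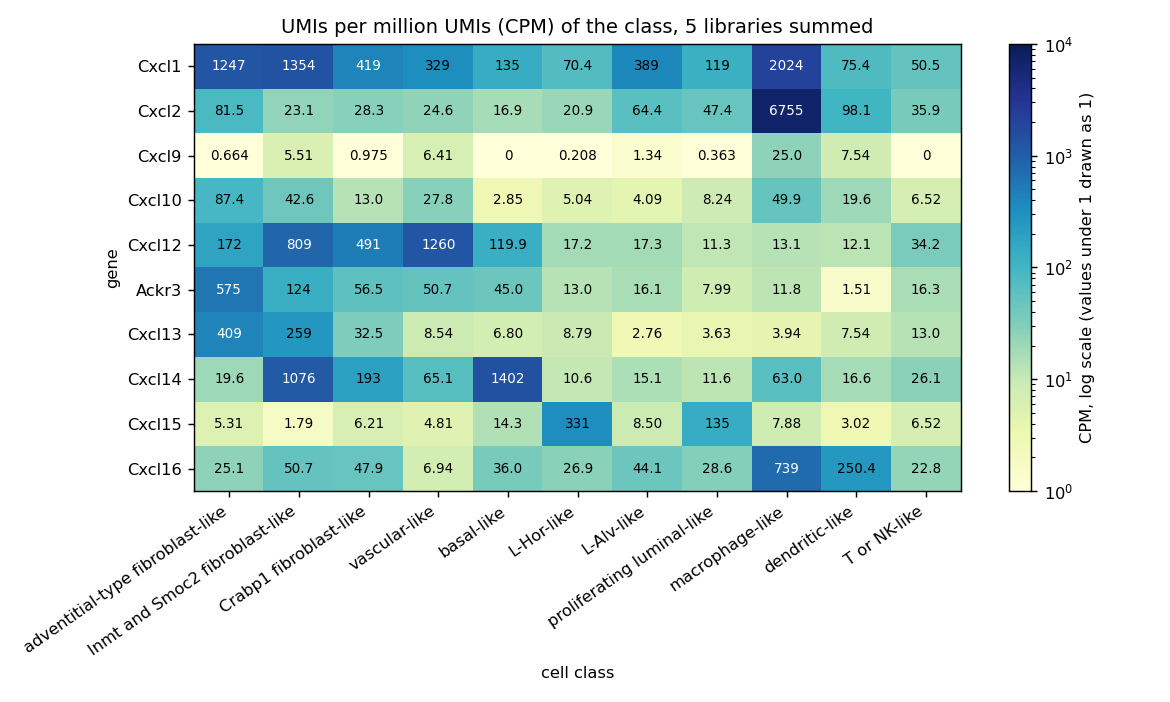
Level of each member (rows) in 11 cell classes (columns), in CPM with the 5 libraries summed; colour is on a log scale and each cell prints its value. Cxcl2 is highest in macrophage-like barcodes (6755 CPM), Cxcl14 in basal-like (1402), Cxcl12 in vascular-like (1260), Ackr3 (575) and Cxcl13 (409) in adventitial-type fibroblasts, and Cxcl15 in L-Hor-like barcodes (331).

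Cxcl1, a neutrophil attractant, was abundant in macrophages and in fibroblasts. In adventitial-type fibroblasts its level was 1281, 758, 1618, 898 and 936 CPM, highest in E2+PBDE and lowest in E2. In Inmt and Smoc2 fibroblasts it was 1331, 1098, 1948, 1202 and 616 CPM, again highest in E2+PBDE. In Crabp1 fibroblasts it was lower, at 172, 344, 541, 325 and 514.5 CPM. Over all fibroblasts, the E2 level was 0.53 times that of OVX [0.513 to 0.548], and in Inmt and Smoc2 barcodes it was 0.825 times [0.757 to 0.898]. In Crabp1 barcodes this ratio was 2.00 [1.58 to 2.55], and at a finer resolution of the sub-clusters (0.6) it was 0.502 [0.351 to 0.723], so no direction is given for them.
Over all fibroblasts the E2+PBDE level was 2.09 times that of E2 [2.03 to 2.16]. The ratio was 2.13 [2.06 to 2.22] in adventitial-type, 1.77 [1.61 to 1.95] in Inmt and Smoc2 and 1.57 [1.44 to 1.73] in Crabp1 barcodes. Between E2+P4+PBDE and E2+P4 the ratios of these classes were 1.04 [0.989 to 1.10], 0.513 [0.416 to 0.628] and 1.58 [1.40 to 1.80], with the last pair on opposite sides of 1. In thinned barcodes, each cut to 3000 UMIs, 60.4% of adventitial-type barcodes of E2+PBDE held a Cxcl1 UMI, against 39.6% in E2, 50.9% in OVX, 45.5% in E2+P4 and 43.3% in E2+P4+PBDE.

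The adventitial sub-cluster that had more barcodes in each PBDE library than in any other library had Cxcl1, Cxcl2 and the monocyte attractant Ccl2 among its leading genes. It was not the largest adventitial sub-cluster of the PBDE libraries. Its Cxcl1 level was 2886, 2213, 3341, 1331 and 2212 CPM. In the largest adventitial sub-cluster, which held most barcodes of this class in each E2-treated library, Cxcl1 was at 917, 551, 1025, 842 and 567 CPM. E2+PBDE was above E2 within both sub-clusters, while E2+P4+PBDE was at 1.66 times E2+P4 in the first [1.48 to 1.87] and 0.673 times in the second [0.629 to 0.721]. In the adventitial sub-cluster that held most OVX barcodes, E2 was at 1.11 times OVX [1.01 to 1.21] and E2+PBDE at 0.784 times E2 [0.677 to 0.907]. Since the members lead one of these sub-clusters, these values are a description of the barcodes and not of a cell type.

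Luminal and macrophage-like barcodes also held Cxcl1 UMIs. In L-Alv-like barcodes it was at 654, 386, 668, 272 and 282 CPM, with E2+PBDE at 1.73 times E2 [1.59 to 1.88]. In L-Hor-like barcodes it was lower than in fibroblasts, at 86.7, 50.2, 99.2, 61.9 and 55.9 CPM, and E2+PBDE was at 1.98 times E2 [1.71 to 2.29]. Cxcl1 over all barcodes of each library was at 961, 291, 639, 262 and 311 CPM, and with free RNA subtracted the L-Hor ratio was 1.89. In macrophage-like barcodes Cxcl1 was at 2877, 1205, 1436, 2535 and 1788 CPM, from 35, 16, 31, 34 and 14 barcodes. Basal-like barcodes, at 185, 135, 118, 138 and 124 CPM, gave an E2+PBDE over E2 ratio of 0.878 [0.665 to 1.16].

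Cxcl2, the neighbour of Cxcl1 on chromosome 5, was a macrophage gene in these glands. In macrophage-like barcodes its level was 8711, 6668, 5731, 6362 and 6146 CPM, and 88.6% to 100% of thinned macrophage-like barcodes held a UMI of it. OVX was highest and the other 4 libraries lay between 5731 and 6668 CPM. Cxcl3, the third ligand of this group, was found in the same cells at 158 CPM over all libraries.

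In fibroblasts Cxcl2 was rare and uneven, with 3.7% to 7.1% of thinned barcodes holding a UMI and the 1% of barcodes with the most UMIs holding 52.7% to 70.5% of all of them. In adventitial-type barcodes its level was 83.0, 50.2, 101, 94.2 and 41.8 CPM. Its Inmt and Smoc2 level was 25.8, 1.89, 21.7, 26.1 and 5.36 CPM, from 137, 1, 17, 12 and 1 UMIs. In Crabp1 barcodes it was 23.1, 9.82, 45.6, 17.2 and 34.9 CPM. The adventitial-type level was thus the highest of the 3 in each library. Over all fibroblasts E2+PBDE was at 2.39 times E2 [2.08 to 2.76], while E2+P4+PBDE was at 0.628 times E2+P4 [0.516 to 0.762]. Without the top 1% of barcodes, the first of these ratios was 3.83. In adventitial-type barcodes the ratios were 2.02 [1.74 to 2.35] and 0.443 [0.357 to 0.548]. Within the adventitial sub-cluster led by Cxcl1 and Cxcl2 they were 1.21 [0.943 to 1.59] and 0.961 [0.621 to 1.52], with intervals that span 1. In the largest adventitial sub-cluster they were 1.93 [1.55 to 2.43] and 0.252 [0.185 to 0.338], on opposite sides of 1. In the one that held most OVX barcodes the first ratio was 0.214 [0.0817 to 0.474], from 7 against 49 UMIs. In Crabp1 barcodes the ratios were 4.65 [2.84 to 8.07] and 2.03 [1.18 to 3.45]. At the finer resolution of 0.6 these were 2.39 [1.08 to 6.03] and 1.49 [0.686 to 3.03], and the last interval spans 1. The summed level of 7 myeloid markers in fibroblast-like barcodes was 25.4, 20.4, 22.1, 30.2 and 46.9 CPM, against 11927 to 18626 CPM in macrophage-like barcodes.

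In L-Alv cells Cxcl2 and Cxcl1 had different orders of the libraries. In L-Alv-like barcodes Cxcl2 was at 55.9, 94.7, 47.2, 63.9 and 58.6 CPM, highest in E2, where Cxcl1 was not. E2+PBDE was at 0.498 times E2 there [0.397 to 0.623]. In L-Hor-like barcodes both genes were higher in E2+PBDE than in E2, with Cxcl2 at 2.47 times [1.84 to 3.34], from 29.5 against 11.9 CPM. The L-Hor ratio of Cxcl2 was 1.13 when the luminal multiplet clusters were kept and the barcodes with the highest doublet scores left out instead. That set of barcodes differs from the L-Hor class used here, and the part of doublets in the ratio was not tested.

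Barcodes with Cxcl1 held Cxcl2 more often than barcodes without it. Among thinned adventitial-type barcodes, Cxcl2 was in 10.3%, 8.3%, 12.5%, 14.9% and 9.2% of those with Cxcl1, against 3.9%, 1.6%, 2.6%, 4.3% and 2.8% of those without. The order held in each of the 5 libraries. These shares rest on sparse counts and on barcodes of equal depth, and are a description.

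**Figure D2:**
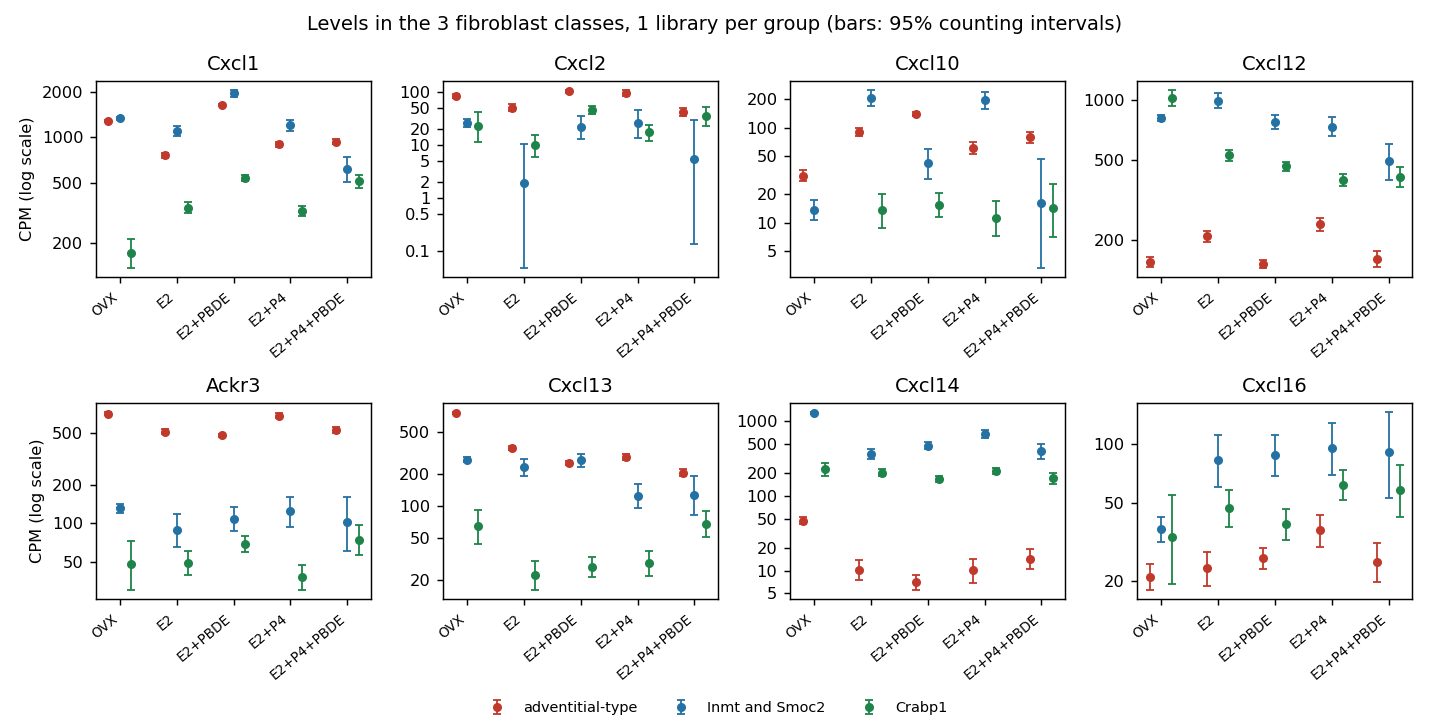
Levels of 8 members in adventitial-type (red), Inmt and Smoc2 (blue) and Crabp1 (green) fibroblast-like barcodes of the 5 libraries, in CPM on a log axis; points are single libraries, bars are exact 95% counting intervals, and a library with 0 UMIs (Cxcl10, Crabp1 barcodes of OVX) has no point. Ackr3 lies higher in adventitial-type barcodes of every library and Cxcl12 lower, and Cxcl14 in Inmt and Smoc2 barcodes is at 1294.5 CPM in OVX and 365 to 678 CPM elsewhere.

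Cxcl10, an interferon-induced ligand of Cxcr3, had most of its UMIs in fibroblasts. Its level in adventitial-type barcodes was 31.4, 89.9, 139, 62.1 and 79.3 CPM, lowest in OVX and highest in E2+PBDE. In Inmt and Smoc2 barcodes it was 13.8, 208, 42.2, 195.6 and 16.1 CPM, from 73, 110, 33, 90 and 3 UMIs. The libraries with E2 or E2+P4 and no PBDE were thus the highest there. In Crabp1 barcodes it was 0, 13.6, 15.5, 11.3 and 14.2 CPM, from at most 48 UMIs a library. E2 was at 2.86 times OVX in adventitial-type [2.43 to 3.37] and at 15.1 times OVX in Inmt and Smoc2 barcodes [11.1 to 20.6]. Within the adventitial sub-clusters the first of these was 3.09 [2.08 to 4.45] in the one that held most OVX barcodes and 1.03 [0.726 to 1.51] in the one that held most E2 barcodes. E2+PBDE against E2 gave 1.55 [1.39 to 1.74] in adventitial-type and 0.202 [0.133 to 0.301] in Inmt and Smoc2 barcodes, where it was 0.428 [0.299 to 0.607] at the finer resolution of 0.6. E2+P4+PBDE against E2+P4 gave 1.28 [1.05 to 1.55] and 0.0822 [0.0166 to 0.248], the second from 3 UMIs in 40 barcodes. In Crabp1 barcodes E2+PBDE was at 1.14 times E2 [0.689 to 1.93].

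A small number of barcodes carried much of the Cxcl10 signal. The top 1% of fibroblast-like barcodes held 73.4%, 48.0%, 28.0%, 34.8% and 28.9% of its UMIs. The share of thinned adventitial-type barcodes with a UMI was 3.2%, 9.1%, 15.8%, 7.9% and 10.7%, again lowest in OVX and highest in E2+PBDE. In basal-like barcodes, which are not known as a source, the share was at most 1.6%. Without the top 1% of barcodes the fibroblast ratio of E2 over OVX was 6.93 in place of 3.54 [3.08 to 4.08]. In L-Hor-like barcodes Cxcl10 was near the level of single UMIs, at 1.29, 1.59, 7.86, 6.60 and 1.92 CPM from 1, 8, 56, 49 and 7 UMIs.

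Cxcl9, the other interferon-induced Cxcr3 ligand measured, was nearly absent from the counts. Of 36 UMIs in fibroblast-like barcodes of OVX, 25 were in 1 barcode, and all 16 UMIs in L-Alv-like barcodes of OVX were in 1 barcode. All 19 UMIs in macrophage-like barcodes came from 1 barcode of OVX, and the 0 UMIs of the other libraries allow up to 16.7 to 55.4 CPM there. No order of libraries can be read from so few cells.

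Cxcl12, the ligand of Cxcr4, had its highest level in vascular cells and most of its UMIs in fibroblasts. In vascular-like barcodes it was at 1253, 1240, 1226, 1168 and 1404 CPM, with 77.8% to 90.9% of thinned barcodes holding a UMI. In Inmt and Smoc2 fibroblasts it was 813, 990, 774, 737 and 493 CPM, and in Crabp1 fibroblasts 1026, 529.7, 468, 398 and 414 CPM. In adventitial-type barcodes it was lower in every library, at 155, 208, 152, 240 and 161 CPM. The E2 over OVX ratio was 1.22 [1.11 to 1.33], 0.516 [0.462 to 0.577] and 1.34 [1.23 to 1.46] in these 3 classes. Within the adventitial sub-clusters it was 0.799 [0.584 to 1.07] in the one that held most OVX barcodes and 1.10 [0.875 to 1.39] in the one that held most E2 barcodes. In the third it was 1.35 [0.731 to 2.64], and each of these intervals spans 1. Both PBDE comparisons were below 1 in adventitial-type barcodes, at 0.729 [0.671 to 0.793] and 0.671 [0.597 to 0.753], and in Inmt and Smoc2 barcodes, at 0.782 [0.695 to 0.881] and 0.669 [0.526 to 0.845]. The median log2 ratio over all genes in adventitial-type barcodes was −0.17 and −0.06.

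Basal-like barcodes also carried Cxcl12, at 251, 73.8, 109, 153 and 62.8 CPM. E2 was at 0.293 times OVX [0.213 to 0.402], E2+P4 at 2.08 times E2 [1.58 to 2.76] and E2+P4+PBDE at 0.409 times E2+P4 [0.301 to 0.549]. Fibroblast markers summed to 2731, 1321, 976, 1195 and 863 CPM in the same barcodes, so OVX was highest for both and E2+P4+PBDE lowest for both. Markers of L-Hor cells summed to 61.6, 324, 186, 382 and 1063 CPM there, and the part of either set of cells in the Cxcl12 values was not tested.

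Ackr3, the scavenging receptor of Cxcl12, marked adventitial-type fibroblasts in every library. Its level there was 709, 513, 480, 682 and 528 CPM, and 71.4% to 83.1% of thinned barcodes held a UMI of it. It was lower in Inmt and Smoc2 barcodes, at 131, 89.0, 109, 124 and 102 CPM, and in Crabp1 barcodes, at 48.3, 49.6, 69.3, 38.3 and 75.0 CPM. The lowest adventitial level thus lay above the highest level of the other fibroblasts. As a background, L-Alv-like barcodes, which should lack it, held an Ackr3 UMI in 3.9% to 9.4% of thinned barcodes.
E2 was at 0.724 times OVX in adventitial-type barcodes [0.689 to 0.761], E2+P4 at 1.33 times E2 [1.25 to 1.41] and E2+P4+PBDE at 0.775 times E2+P4 [0.726 to 0.827]. Within the adventitial sub-cluster that held most E2 barcodes the first ratio had an interval that spans 1 [0.827 to 1.10], and it was 0.727 in the one that held most OVX barcodes [0.628 to 0.837]. Over all fibroblasts the 5 levels lay closer together, at 463, 350, 369.5, 395 and 410.0 CPM.

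Over all libraries, adventitial-type barcodes had the lowest Cxcl12 level of the fibroblast classes and the highest Ackr3 level. Cxcl12 was at 808.6 CPM in Inmt and Smoc2, 491 CPM in Crabp1 and 172 CPM in adventitial-type barcodes, and Ackr3 at 124, 56.5 and 575 CPM. The signalling receptor of Cxcl12, Cxcr4, was found at 101 CPM in macrophage-like and 92.9 CPM in T or NK-like barcodes.

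Cxcl13, the B cell attractant, was almost wholly a fibroblast gene and was highest in OVX in adventitial-type barcodes. It was at 756, 356, 257, 291 and 207 CPM there, with E2 at 0.471 times OVX [0.445 to 0.499]. The share of thinned adventitial-type barcodes with a UMI differed less than the level, at 39.5%, 39.9%, 33.0%, 33.5% and 27.1%. Most OVX adventitial barcodes belonged to a sub-cluster with Cxcl13 among its leading genes, where the OVX level was 710.5 CPM. In the largest adventitial sub-cluster of the treated libraries, which held 64 OVX barcodes, Cxcl13 was at 1463, 385, 318, 319 and 252 CPM, so OVX was also highest within it. The E2 over OVX ratio within the 3 adventitial sub-clusters was 0.263 [0.239 to 0.290], 0.294 [0.232 to 0.366] and 0.196 [0.146 to 0.262]. In Inmt and Smoc2 barcodes Cxcl13 was at 275, 233, 272, 126 and 129 CPM, with an E2 over OVX ratio of 0.846 whose interval spans 1 [0.698 to 1.02]. In Crabp1 barcodes it was at 65.1, 22.4, 26.9, 29.0 and 68.5 CPM. Between E2+PBDE and E2 the adventitial ratio was 0.722 [0.678 to 0.770], and between E2+P4+PBDE and E2+P4 it was 0.713 [0.643 to 0.791]. The same ratios were 1.17 [0.932 to 1.47] and 1.02 [0.606 to 1.67] in Inmt and Smoc2 barcodes, and in Crabp1 barcodes 1.20 [0.817 to 1.79] and 2.36 [1.60 to 3.48]. At the finer resolution of 0.6 the last was 2.23 with an interval that spans 1 [0.653 to 7.01], from 6 against 9 UMIs. B cell markers were nearly absent, with 4 of them summing to 44.2 to 104 CPM in hematopoietic-like barcodes, and Cxcr5 had 12 UMIs in all barcodes.

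Cxcl14 was lower in each E2-treated library than in OVX in basal cells and in Inmt and Smoc2 fibroblasts, where its level was highest. In basal-like barcodes it was at 3498, 1209, 1329.9, 1355 and 808 CPM, and every thinned OVX barcode held a UMI of it, against 87.3% to 90.6% in the other libraries. E2 was at 0.345 times OVX there [0.319 to 0.374]. In Inmt and Smoc2 fibroblasts, a sub-cluster that Cxcl14 leads, it was at 1294.5, 365, 469, 678 and 396.5 CPM, with E2 at 0.282 times OVX [0.243 to 0.326]. At a resolution of 0.6 this class was divided. The part led by Cxcl14 held 734 of its 1098 barcodes in OVX and 28 of 73 in E2, so levels of the class also reflect this mix. In Crabp1 fibroblasts Cxcl14 was at 227, 206, 169.9, 217 and 172 CPM, a much smaller range, and E2 was at 0.910 times OVX [0.733 to 1.14]. At the finer resolution of 0.6 the last ratio was 0.437 [0.340 to 0.563].

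In adventitial-type barcodes, where Cxcl14 was low, it was at 46.6, 10.3, 6.99, 10.2 and 14.5 CPM, and E2 was at 0.220 times OVX [0.157 to 0.302]. Within the adventitial sub-cluster that held most OVX barcodes, E2 was at 1.31 times OVX [0.818 to 2.00], from 23 UMIs in E2. A value over all fibroblasts therefore also reflects which sub-clusters held the barcodes. In basal-like barcodes, E2+P4+PBDE was at 0.596 times E2+P4 [0.547 to 0.649] and E2+PBDE at 1.10 times E2 [1.01 to 1.20]. The 8 basal markers summed to 16280, 12070.5, 11755, 11757 and 6680 CPM in these barcodes, so the library with the lowest Cxcl14 level was also the lowest for these markers and the highest for L-Hor markers; the part of other cells in the Cxcl14 value was not tested.

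Cxcl15 was a hormone-sensing luminal gene, and its level there was higher in every E2-treated library than in OVX. In L-Hor-like barcodes it was at 97.0, 402, 402, 229.6 and 351 CPM. A UMI of it was in 21.7%, 65.4%, 65.0%, 45.9% and 60.7% of thinned barcodes. E2 was at 4.14 times OVX [3.29 to 5.29], E2+P4 at 0.571 times E2 [0.535 to 0.610], E2+PBDE at 1.00 times E2 [0.945 to 1.06] and E2+P4+PBDE at 1.53 times E2+P4 [1.42 to 1.65]. E2+P4 was the lowest of the treated libraries and its interval did not reach those of the others. In proliferating luminal-like barcodes, absent from OVX, the level was 189, 111, 46.4 and 90.7 CPM in the treated libraries.

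Elsewhere Cxcl15 was low. Over all barcodes of the libraries it was at 9.02, 155, 133, 82.0 and 144 CPM, and in fibroblast-like barcodes at 0.0728, 8.21, 7.26, 7.11 and 21.4 CPM. In 2565 OVX fibroblasts a single UMI was counted, so the fibroblast ratio of E2 to OVX, 113 with an interval from 19.4 to 4534.6, rests on that UMI. With free RNA subtracted, at 5% of the level over all barcodes, the OVX level was negative and was set to the floor of 3 counts. The ratio of E2 to that floor was 2.04. In basal-like barcodes of E2+P4+PBDE it was at 40.7 CPM, where L-Hor markers were also highest.

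**Figure D3:**
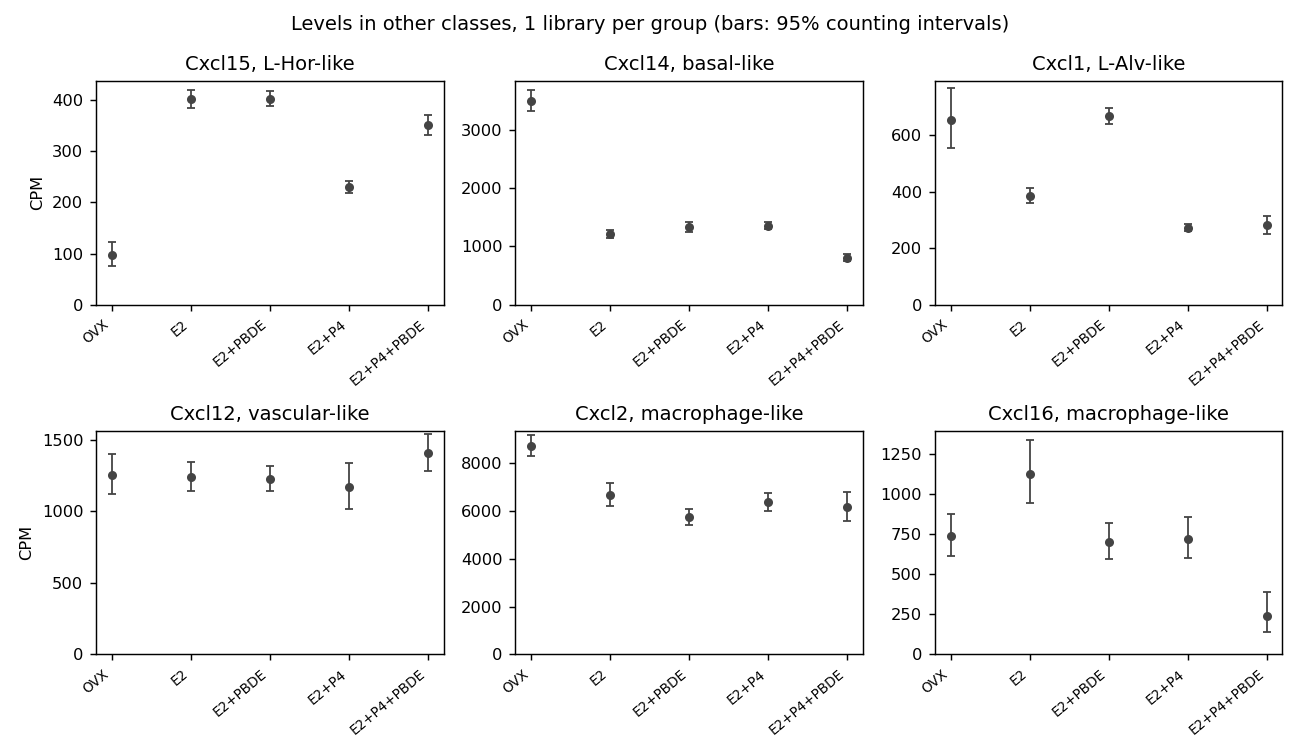
Levels of Cxcl15, Cxcl14, Cxcl1, Cxcl12, Cxcl2 and Cxcl16 outside fibroblasts in the 5 libraries, in CPM on linear axes from 0. Points are single libraries and bars are exact 95% counting intervals. Cxcl15 in L-Hor-like barcodes lies at 97.0 CPM in OVX and 229.6 to 402 CPM elsewhere, Cxcl14 in basal-like barcodes at 3498 CPM in OVX and 808 to 1355 CPM elsewhere, and Cxcl12 in vascular-like barcodes between 1168 and 1404 CPM.

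Cxcl16, the membrane-bound ligand of Cxcr6, was highest in antigen-presenting cells. In macrophage-like barcodes it was at 738, 1128, 700.0, 719 and 240.4 CPM, the last from 16 UMIs in 14 barcodes. Within these, the macrophage sub-cluster led by Mmp12 and C1qa had 1222 CPM over all libraries and the one led by Lyz1, Retnla and Mrc1 had 131 CPM. E2+P4+PBDE had 3 of its 14 macrophage-like barcodes in the first of these sub-clusters, against 11 of 16 in E2. In dendritic-like barcodes it was at 329.5, 217, 208, 277 and 241 CPM. Epithelial cells held a low level, at 62.1, 29.3, 25.5, 25.2 and 22.5 CPM in L-Hor-like and 73.2, 52.8, 41.7, 44.6 and 25.1 CPM in L-Alv-like barcodes, with OVX highest in both. The Inmt and Smoc2 level was 36.6, 83.3, 88.2, 95.6 and 91.1 CPM, with OVX lowest, and E2 at 2.28 times OVX [1.60 to 3.17]. In Crabp1 fibroblasts it was 33.6, 46.9, 38.8, 61.9 and 58.2 CPM, and the same ratio was 1.40 with an interval that spans 1 [0.813 to 2.55]. In adventitial-type barcodes, the largest fibroblast class, the E2 over OVX ratio of Cxcl16 was 1.11, and its interval also spans 1 [0.855 to 1.43]. The Cxcl16 receptor Cxcr6 was found at 127 CPM in T or NK-like barcodes.

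Estradiol against vehicle gave the largest count of members past 2-fold. A pair of gene and class was counted where both libraries together held 50 UMIs or more, in 5 classes taken apart, and 17 of 34 pairs of member and class were past 2-fold, against 8.99% of all pairs. In fibroblast-like barcodes 4 of 9 were past it (4.12% of all genes), with Cxcl10 and Cxcl15 higher and Cxcl13 and Cxcl14 lower. Cxcl15 reached 50 UMIs there through E2. Without the sub-cluster that carries epithelial genes it had too few UMIs to be compared. The count was then 3 of 8, with 1 higher and 2 lower (of 10453 genes, 255 were higher and 165 lower). In L-Hor-like barcodes 5 of 8 were (9.35% of all genes), with Cxcl15 higher and Cxcl12, Cxcl13, Cxcl14 and Cxcl16 lower. The median ratio over all genes in L-Hor cells was 0.85, the OVX class held 92 barcodes, and 6 fibroblast markers summed to 2570 CPM in OVX and 1652 CPM in E2 there; the part of fibroblast RNA in the 3 lower stromal chemokines was not tested. In basal-like barcodes 2 of 5 were past 2-fold (14.3% of all genes), Cxcl12 and Cxcl14, both lower. In L-Alv-like barcodes it was 0 of 4 (12.1% of all genes), from 32 OVX barcodes.

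In hematopoietic-like barcodes 6 of 8 members were lower past 2-fold in E2 (15.1% of all genes), but these barcodes were not alike. Sub-clusters with fibroblast or epithelial genes made up 38.9% of them in OVX and 5.9% in E2, and fibroblast markers summed to 9110.3 CPM in OVX and 1082 CPM in E2. Without those sub-clusters 3 members could be compared: Cxcl1 at 0.444, Cxcl2 at 0.811 and Cxcl16 at 1.22 times OVX. Without those sub-clusters and the fibroblast-like one with epithelial genes, the count over 5 classes was 11 of 28. The share of all pairs was not computed at this setting.

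Progesterone added to E2 gave the smallest count of members past 2-fold, in the comparison with the lowest share of all pairs past it. The count was 3 of 33 pairs, against 2.27% of all pairs. It was 0 of 9 in fibroblasts (1.62% of all genes), 1 of 9 in L-Hor cells (1.60%), 1 of 7 in L-Alv cells (2.09%), 1 of 5 in basal cells (2.85%) and 0 of 3 in hematopoietic cells (7.06%). The members past it were Cxcl10 in L-Hor cells, at 4.15 times E2 [1.95 to 10.1] from 49 against 8 UMIs (1.12 at a clustering resolution of 1.0 and 12.7 with free RNA subtracted), Cxcl15 in L-Alv cells, at 0.461 [0.284 to 0.760], and Cxcl12 in basal cells. Cxcl10 reached the UMI minimum in L-Hor cells through E2+P4, and had too few UMIs there to be compared between E2 and OVX. The Cxcl15 difference in L-Hor cells, from 2018 and 1703 UMIs, did not reach 2-fold.

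PBDE was compared in the presence of E2 alone and of E2 with P4. With E2 alone 8 of 36 pairs were past 2-fold, against 2.67% of all pairs. In fibroblasts they were 2 of 9 (1.46% of all genes), Cxcl1 and Cxcl2, both higher. In L-Hor cells they were 2 of 9 (1.75%), Cxcl2 and Cxcl10, both higher, where Cxcl10 reached the UMI minimum through E2+PBDE. In L-Alv cells they were 2 of 7 (1.62%), Cxcl2 and Cxcl12, both lower, and in basal cells 0 of 5 (2.77%). In hematopoietic cells they were 2 of 6 (12.4%), Cxcl12 at 8.53 and Ackr3 at 2.10 times E2, where the sub-clusters with fibroblast or epithelial genes were 29.7% of barcodes against 5.9% in E2. The median log2 ratio over all genes was −0.17 in fibroblasts, −0.15 in L-Hor and in L-Alv cells and −0.12 in basal cells, and the ratios given for members are not shifted by it.

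With E2 and P4, 6 of 34 pairs were past 2-fold, against 4.22% of all pairs. In fibroblasts they were 2 of 9 (2.62% of all genes), Cxcl15 higher and Cxcl14 lower, at 0.449 times E2+P4 [0.389 to 0.516]. The Cxcl14 ratio was 0.585 [0.448 to 0.756] in Inmt and Smoc2 and 0.793 [0.649 to 0.965] in Crabp1 barcodes. The Cxcl15 ratio, 3.02, was 1.91 [1.16 to 3.19] without the 34 barcodes that carry epithelial genes and 1.59 at a clustering resolution of 1.0. In L-Hor cells they were 1 of 9 (3.05%), Cxcl10, and in L-Alv cells 1 of 7 (5.20%), Cxcl12. In basal cells they were 2 of 6 (6.49%), Cxcl15 higher and Cxcl12 lower, and in hematopoietic cells 0 of 3 (7.21%). Cxcl10 in L-Hor cells reached the UMI minimum through E2+P4, and Cxcl15 in basal cells through E2+P4+PBDE.

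**Figure D4:**
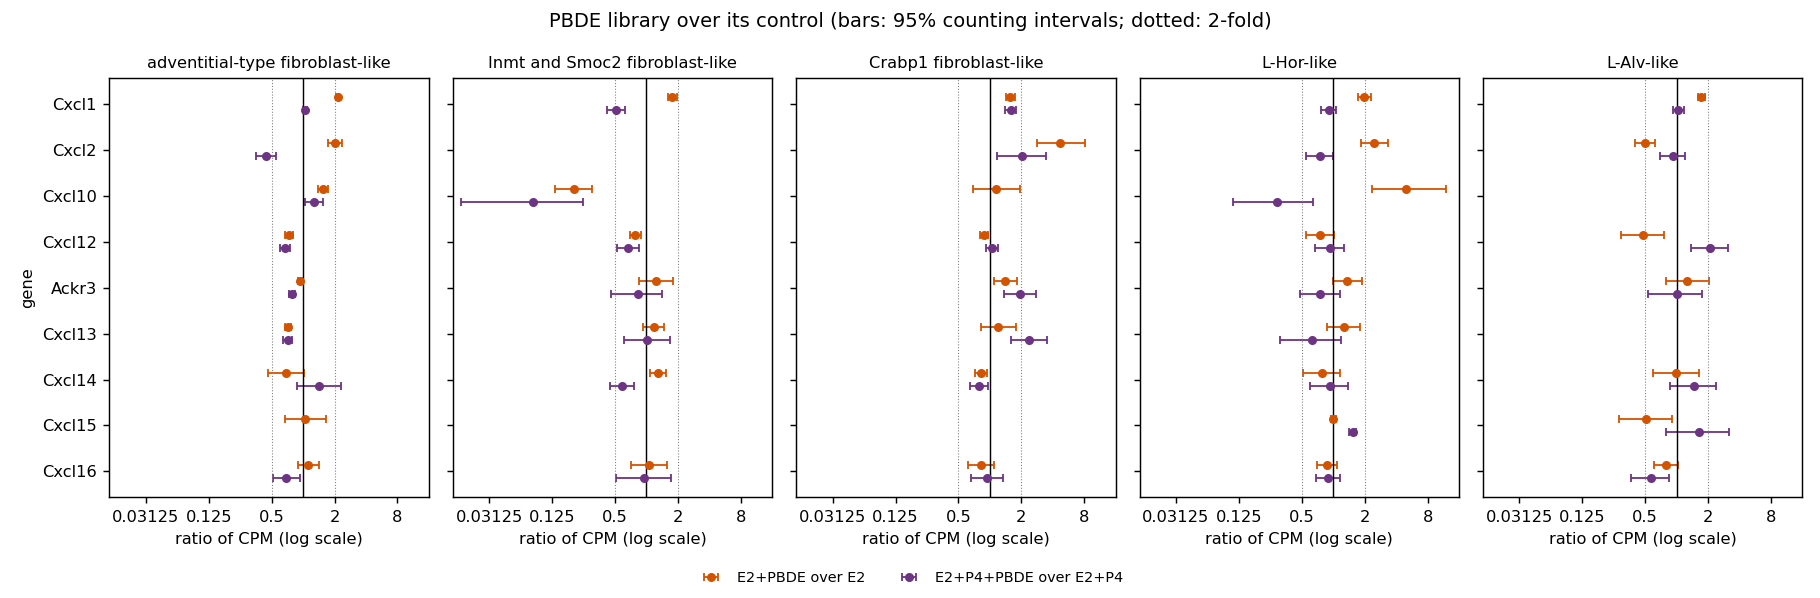
Ratio of each PBDE library to its control without PBDE, on a log axis, for 9 members in 5 classes; orange is E2+PBDE over E2, purple is E2+P4+PBDE over E2+P4, bars are exact 95% counting intervals, dotted lines mark 2-fold, and pairs with fewer than 50 UMIs are left out. Cxcl1 in adventitial-type barcodes lies at 2.13 without P4 and at 1.04 with it, Cxcl10 in Inmt and Smoc2 barcodes at 0.202 and 0.0822, and Cxcl12 in adventitial-type barcodes at 0.729 and 0.671.

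Genes of the NF-κB and cytokine list, many of them NF-κB targets like Cxcl1 and Cxcl2, were compared in fibroblasts. Of 19 with enough UMIs, 2 were past 2-fold higher in E2+PBDE than in E2 and none lower (1.46% of all genes were past it either way), with a median log2 ratio of 0.29 against −0.17 for all genes: Il1b, a cytokine of the inflammatory response, at 2.10 and Ptgs2, the inducible cyclooxygenase, at 2.01. Ccl2 was at 1.60 and the κB inhibitor Nfkbia at 1.01. None of 18 was past 2-fold in adventitial-type barcodes (1.37% of all genes), with a median log2 ratio of 0.22. Of 13 in Inmt and Smoc2 barcodes 1 was higher (of 2817 genes, 26 were higher and 34 lower). Of 16 in Crabp1 barcodes 1 was higher (of 6952 genes, 39 were higher and 51 lower). Between E2+P4+PBDE and E2+P4, 1 of 19 was past 2-fold (2.62% of all genes), the cytokine Lif, lower at 0.423, and the median log2 ratio was −0.21. By class, none of 17 was past it in adventitial-type barcodes (1.47% of all genes). Of 12 in Inmt and Smoc2 barcodes 3 were lower (of 1594 genes, 20 were higher and 49 lower). Of 14 in Crabp1 barcodes 2 were higher (of 5217 genes, 44 were higher and 103 lower). Between E2 and OVX 2 of 19 were lower (4.12% of all genes past it either way), Il1b at 0.382 and Ptgs2 at 0.492. By class, 1 of 18 was higher and 1 lower in adventitial-type barcodes (2.86% of all genes). Of 17 in Inmt and Smoc2 barcodes 1 was higher (of 7341 genes, 207 were higher and 465 lower). Of 13 in Crabp1 barcodes 3 were higher (of 4630 genes, 256 were higher and 175 lower), and none was lower in these 2 classes.

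Type I interferon response genes were compared in adventitial-type fibroblasts, where Cxcl10 had most of its UMIs. Between E2 and OVX, 2 of 8 were past 2-fold higher (2.86% of all genes were past it either way), Ifit3 at 3.76 and Isg15 at 2.45, and the median log2 ratio was 0.89, against 0.01 over all genes; Cxcl10 was at 2.86. Between E2+P4 and E2, 5 of 8 were past 2-fold lower (2.01% of all genes), Isg15 at 0.396, and the median log2 ratio was −1.14; Cxcl10 was at 0.690. Between E2+PBDE and E2 none of 9 was past 2-fold (1.37% of all genes), Isg15 was at 0.722 and Cxcl10 at 1.55. Between E2+P4+PBDE and E2+P4, 1 of 7 was higher (1.47% of all genes), Isg15 at 2.37, and Cxcl10 was at 1.28. Few genes of this list had enough UMIs in Inmt and Smoc2 barcodes. Between E2 and OVX 5 of 5 were higher there (of 7341 genes, 207 were higher and 465 lower), and Cxcl10 was at 15.1. Between E2+P4 and E2 1 of 2 was lower (of 2313 genes, 18 were higher and 25 lower), and Cxcl10 was at 0.939. Between E2+PBDE and E2 2 of 3 were lower (of 2817 genes, 26 were higher and 34 lower), and Cxcl10 was at 0.202. These comparisons share control libraries. The interferon-gamma list showed less in adventitial-type barcodes: 1 of 16 genes was past 2-fold higher for E2 against OVX there (2.86% of all genes past it either way), Gbp4 at 2.22, with a median log2 ratio of 0.33.

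Genes induced by tissue dissociation also differed between libraries. Their summed level in fibroblast-like barcodes was 16617, 12356, 8773, 9498 and 9919 CPM, highest in OVX, and 2 of 17 were past 2-fold lower in E2 than in OVX, with a median log2 ratio of −0.49 (4.12% of all genes past it). These were the heat shock genes Hspa1a, at 0.455, and Hspa1b, at 0.467. In adventitial-type barcodes 0 of 17 were, with a median of −0.14, and the sum was 12076 CPM in OVX and 11399 CPM in E2. OVX also had the highest sum in Inmt and Smoc2 barcodes, at 22594, 18031, 14652, 15896 and 16214 CPM, in Crabp1 barcodes, at 25989, 12982, 10515, 9594 and 11690 CPM, and in basal-like barcodes, at 18050, 9056, 9248, 8338 and 6934 CPM. In the hematopoietic-like barcodes 13 of 16 were past 2-fold lower in E2 (15.1% of all genes), with a median log2 ratio of −1.51. Over all fibroblasts E2+PBDE was the lowest of 5 libraries for this list and the highest for Cxcl1, at 1400.3 CPM, and OVX was high for both. These sums also reflect the mix of fibroblast classes. E2+PBDE was lowest for the list in Inmt and Smoc2 barcodes and E2+P4 in Crabp1 barcodes. The part of dissociation in the levels of Cxcl1, Cxcl13 and Cxcl14 was not tested in any library.

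Receptors for these ligands were sparse. Of 9 other receptors measured, Ackr1, Ackr2 and Ackr4, which bind and remove chemokines, had at least 50 UMIs over both libraries in fibroblasts in each comparison. They were highest in adventitial-type barcodes, the class of Ackr3, at 28.4, 22.8 and 8.98 CPM over all libraries. Cxcr3 had 8 UMIs in T or NK-like barcodes (13.0 CPM), Cxcr2 had 8 UMIs in all barcodes, and Cxcr1 had none. Of 5 other CXC ligands in the gene table, Cxcl17 was at 97.3 CPM in L-Hor-like barcodes and Pf4 at 119.5 CPM in macrophage-like barcodes, Cxcl5 had 139 UMIs and Ppbp had 4 UMIs in all.

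The genes whose levels were most like those of a member were sought over 34 points of class and library. The points share libraries, so the correlations are descriptions. Ackr3 was nearest to the receptor kinase gene Axl (r = 0.96), Fstl1 and Adamts5, and Cxcl13 to Lrrn4cl (r = 0.94), Wnt2 and the matrix proteoglycan gene Dcn. Cxcl12 was nearest to the basement membrane gene Hspg2 (r = 0.97), Igfbp7 and Ptrf, and Cxcl14 to Fst (r = 0.89), Icam1 and the myosin gene Myl9. Cxcl15 was nearest to Tmem56 (r = 0.96), Wfdc2 and the prolactin receptor gene Prlr, and Cxcl16 to Rassf5 (r = 0.87), the cathepsin gene Ctsc and Arl4c. Cxcl1 was nearest to Mnda (r = 0.91), Pim1 and Smpdl3a, and Cxcl2 to the chemerin-binding receptor gene Ccrl2 (r = 0.91), Ptafr and Bcl2a1b. Cxcl10 had the lowest values, with Limk1 (r = 0.82), Srgap1 and Ccdc109b.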

How the data were processed

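Single-cell libraries (Chromium v2, 3′) were sequenced and counted by the authors with Cell Ranger 2.0.0 against mm10, and the deposited files hold raw UMI counts per gene and barcode. Their clustering was not used here. Barcodes with at least 500 genes, at least 1000 UMIs and at most 10% mitochondrial UMIs were kept, giving 2229 to 3526 per library. Each library was clustered with Seurat 5.3.0 (R 4.3.3; 2000 variable genes, 10 principal components, 20 neighbours, resolution 0.3 for OVX and 0.5 elsewhere) and named from marker lists; fibroblast-like and hematopoietic-like barcodes were clustered again over the 5 libraries (resolution 0.3 and 0.6) without the members among the variable genes. Fibroblast sub-clusters that were not adventitial were called by leading genes and divided after their values were seen. Putative multiplets were removed by cluster. In an alternative these clusters were kept and the barcodes with the highest 20% of Scrublet (scanpy 1.11.5) scores were left out. Free RNA was not removed except in an alternative.

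CPM were computed here by summing counts per class and library, with exact Poisson intervals, and ratios of CPM with exact conditional binomial intervals (scipy 1.17.1, Python 3.11.15). Shares of barcodes with a UMI were taken after thinning to 3000 UMIs. A sum of 0 was set to a floor of 3 counts in ratios, as was a level at or below 0 after free RNA was subtracted. With 1 library per group no test was possible and none was made. A ratio counted as past 2-fold at 2 or more or 0.5 or less, for genes whose UMIs in both libraries together reached 50 and classes with 20 barcodes or more in each. The scripts were tested on simulated data.

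The members, the gene lists, the marker lists and the alternatives were chosen with earlier results of these data known. All 10 members are named; of each list, the counts and the genes with the largest ratios are given, and for likeness the 3 genes with the highest Pearson correlation of log2(CPM + 1), for members with at least 200 UMIs, among genes with at least 500. The counts per class, Ccl2, Nfkbia, and the sub-clusters named for Cxcl1, Cxcl13, Cxcl14 and Cxcl16 were picked after their values were seen.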

Additional observations from a re-analysis of the deposited data

Results flagged for a closer look

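In 5 of 33 pairs of member and class, the E2+PBDE over E2 ratio and the E2+P4+PBDE over E2+P4 ratio lay on opposite sides of 1, with counting intervals that left out 1 in both. The share of all pairs of gene and class that meet this rule was not computed, so the count is not read as a result about the members. The difference between the ratios was not tested in any of the 5 pairs, since each group is 1 library. Cxcl2 in fibroblast-like barcodes was at 2.39 without P4 and 0.628 with it. Cxcl10 in L-Hor-like barcodes was at 4.93 and 0.290, from 56 against 8 and 7 against 49 UMIs. Each of these ratios reached the UMI minimum through its higher library. The first was 0.999 at a clustering resolution of 1.0 and past 2-fold in 5 of 10 alternatives. Cxcl12 in L-Alv-like barcodes was at 0.477 and 2.10, from 33 against 48 and 34 against 97 UMIs; the first was 0.906 at a resolution of 1.0, the second 1.35 with at most 5% mitochondrial UMIs, and each was past 2-fold in 6 of 10 alternatives. Cxcl12 in basal-like barcodes was at 1.48 and 0.409, and Cxcl14 in the same barcodes at 1.10 and 0.596, where L-Hor markers summed to 1063 CPM in E2+P4+PBDE and 382 CPM in E2+P4.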

How the results depend on the processing

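No paired analysis was possible because each group is 1 library and no test was made. The number of pairs of member and class past 2-fold moved by more than 1.5 times as follows. For E2 against OVX (17 of 34) it was 9 of 24 with multiplet clusters kept and the highest 20% of doublet scores left out. It was 6 of 17 with at least 200 UMIs, and 11 of 28 without the mixed sub-clusters, an alternative chosen after seeing the data. For E2+P4 against E2 (3 of 33) it was 7 of 33 without the top 1% of barcodes and 5 of 33 with free RNA subtracted. It was 7 of 40 with at least 20 and 1 of 22 with at least 200 UMIs, 1 of 21 with all epithelial barcodes together and 12 of 33 at a fold of 1.5. For E2+PBDE against E2 (8 of 36) it was 4 of 28 with doublet scores and 4 of 39 with classes from the markers of each barcode. It was 4 of 20 with at least 200 UMIs, 4 of 24 with epithelial barcodes together and 13 of 36 at 1.5-fold. For E2+P4+PBDE against E2+P4 (6 of 34) it was 10 of 40 with at least 20 UMIs, 2 of 21 with at least 200 and 15 of 34 at 1.5-fold. The cause was not tested. Fewer or more pairs were compared where the UMI minimum, the classes or the barcodes kept changed. The share of all pairs past the fold was not computed at these settings.

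Ratios crossed 1 for Cxcl15 in L-Alv-like barcodes (E2+P4 against E2, 1.78 with multiplet clusters kept), Cxcl10 in L-Hor-like barcodes (E2+PBDE against E2, 0.999 at a resolution of 1.0) and Cxcl13 in L-Hor-like barcodes (E2 against OVX, 2.27 with free RNA subtracted). In fibroblasts, over 10 alternatives, Cxcl14 for E2 against OVX ranged from 0.140 to 0.185, Cxcl10 from 2.81 to 6.93, and Cxcl1 for E2+PBDE against E2 from 1.96 to 2.35. With fibroblasts sub-clustered at a resolution of 0.6, an alternative that left 487 barcodes without a class, 34 of 150 levels and 19 of 90 ratios of the fibroblast classes moved beyond their counting intervals; in Crabp1 barcodes the Ackr3 ratio of E2+P4+PBDE to E2+P4 was 0.514 in place of 1.96, and that of Cxcl1 for E2 against OVX 0.502 in place of 2.00. Leaving out a replicate was not possible, and values from few barcodes are limited by counting.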
